A study of Mus musculus with 10 samples.

Results

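The regions described here were chromatin sites that were open in mouse long-term hematopoietic stem cells (LT-HSC) and in none of the later wild-type (WT) progenitor stages of the series. They were chosen from peak detection alone: peaks of all 10 libraries on chromosomes 1 to 19 and X that shared 1 bp or more were joined, and a merged region was a member when both LT-HSC libraries had a peak in it and no LMPP, WT MDP or WT CDP library did. This rule left 1519 members among 114366 merged regions (1.33%), or among the 29268 regions found in both LT-HSC libraries (5.19%). The libraries of IRF8-deficient cells took no part in the choice. Because detection in the 8 WT libraries chose the members, their presence in LT-HSC and absence elsewhere is a description and carries no test.

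The study mapped open chromatin by ATAC-seq, in which a transposase cuts and tags accessible DNA, in cells of C57BL/6 bone marrow isolated by MACS and FACS, which are magnetic and flow cytometric sorting. There were 5 groups of 2 libraries: WT LT-HSC (Lin– CD117+ Sca-1+ CD135– CD48– CD150+), WT LMPP (lymphoid-primed multipotent progenitors, Lin– CD117+ Sca-1+ CD135+), IRF8KO MDP, WT MDP (monocyte-dendritic cell progenitors, Lin– Sca-1– CD117+ IL-7R– CD115+) and WT CDP (common dendritic cell progenitors, which were Lin– and Sca-1–, had intermediate CD117, lacked IL-7R and carried CD115 and CD135). The IRF8KO MDP carried the same surface markers as the WT MDP and lacked IRF8, a transcription factor needed for monocyte and dendritic cell development. The titles call the second group LMPP, which is the name used here, although the cell type given for it is the short-term stem cell. Each library was made from 5000 to 7200 cells, the source animals of the libraries are not labelled, and the labels do not list the antibodies of the lineage gate. The peak lists give positions only, so the knockout label could not be checked from them.

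LT-HSC sit at the top of the blood hierarchy and give rise to every blood lineage. Blood stem cells are known to carry open chromatin at some genes of lineages they have not yet entered, and such sites can close as a cell commits to another lineage. GATA factors bind WGATAR motifs and, with the erythroid factor KLF1, drive the red cell program, which includes the globin genes, heme synthesis and the proteins of the red cell membrane. The LMPP, MDP and CDP stages lead away from the erythroid and megakaryocyte lineages, toward lymphoid, monocyte and dendritic cells.

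The sequences shown first are the promoter windows of the 7 erythroid list genes whose window overlapped a member, because erythroid genes stood apart among the gene lists described below. Hbb-bs and Tspo2 were picked by the rule for named promoters, and the other 5 were added after their values were seen. Each window runs from 250 bases before to 50 bases after the start site, 5′ to 3′ on the gene's strand, and comes from RefSeq in GRCm38.p6, the same assembly as mm10. Capitals mark GATA motifs (AGATAA or TGATAA, or their complement) and KLF motifs (GGGNGTGG, or its complement), searched on both strands. A match is a description of the letters and not a bound site.
Hbb-bs (chr7:103827879-103828178, minus strand): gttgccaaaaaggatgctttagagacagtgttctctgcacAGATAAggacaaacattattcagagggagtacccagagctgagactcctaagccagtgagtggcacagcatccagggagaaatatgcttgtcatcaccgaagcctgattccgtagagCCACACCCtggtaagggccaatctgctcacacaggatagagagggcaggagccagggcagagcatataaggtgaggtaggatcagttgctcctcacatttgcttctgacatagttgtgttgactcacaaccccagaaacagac
Tspo2 (chr17:48451452-48451751, minus strand): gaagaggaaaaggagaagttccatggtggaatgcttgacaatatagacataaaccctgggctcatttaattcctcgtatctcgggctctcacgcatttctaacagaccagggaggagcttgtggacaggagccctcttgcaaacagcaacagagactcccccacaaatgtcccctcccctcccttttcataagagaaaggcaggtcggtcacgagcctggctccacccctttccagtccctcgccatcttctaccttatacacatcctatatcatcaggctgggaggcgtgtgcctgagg
Kel (chr6:41704276-41704575, minus strand): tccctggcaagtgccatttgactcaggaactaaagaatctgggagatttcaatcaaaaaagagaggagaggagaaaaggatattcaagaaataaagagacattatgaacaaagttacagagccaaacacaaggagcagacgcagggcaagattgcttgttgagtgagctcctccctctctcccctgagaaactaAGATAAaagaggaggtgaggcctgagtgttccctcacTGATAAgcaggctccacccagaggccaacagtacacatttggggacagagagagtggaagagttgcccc
Trim10 (chr17:36869324-36869623, plus strand): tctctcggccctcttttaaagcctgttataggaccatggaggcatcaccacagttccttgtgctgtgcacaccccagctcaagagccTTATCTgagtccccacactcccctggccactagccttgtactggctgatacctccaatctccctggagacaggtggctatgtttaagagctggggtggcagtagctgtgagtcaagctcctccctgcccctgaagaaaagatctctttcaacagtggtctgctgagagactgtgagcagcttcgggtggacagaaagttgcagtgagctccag
Klf1 (chr8:84901732-84902031, plus strand): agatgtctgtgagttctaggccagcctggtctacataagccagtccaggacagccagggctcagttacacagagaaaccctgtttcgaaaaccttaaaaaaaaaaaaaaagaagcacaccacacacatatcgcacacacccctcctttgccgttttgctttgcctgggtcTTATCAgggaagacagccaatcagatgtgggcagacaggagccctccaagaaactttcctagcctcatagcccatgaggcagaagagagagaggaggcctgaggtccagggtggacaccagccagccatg
Rhag (chr17:40810899-40811198, plus strand): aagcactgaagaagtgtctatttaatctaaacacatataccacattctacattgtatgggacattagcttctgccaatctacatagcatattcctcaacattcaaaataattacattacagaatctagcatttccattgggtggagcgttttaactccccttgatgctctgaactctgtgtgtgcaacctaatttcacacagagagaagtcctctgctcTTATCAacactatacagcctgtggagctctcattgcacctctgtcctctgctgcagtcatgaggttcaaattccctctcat
Gata1 (chrX:7967861-7968160, minus strand): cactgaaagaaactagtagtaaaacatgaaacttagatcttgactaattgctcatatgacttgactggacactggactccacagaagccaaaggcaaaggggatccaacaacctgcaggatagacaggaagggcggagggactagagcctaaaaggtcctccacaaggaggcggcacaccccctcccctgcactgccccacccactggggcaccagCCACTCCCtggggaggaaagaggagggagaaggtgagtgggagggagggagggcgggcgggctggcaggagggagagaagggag

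A GATA motif was present in 5 of these 7 windows. The adult beta-globin gene Hbb-bs had 1 that began 210 bases before the start site, and a KLF motif that began 93 bases before it. Kel, which encodes the Kell blood group protein, had 2 GATA motifs, beginning 56 and 19 bases before the start. Trim10, a ubiquitin ligase family gene of late erythroid cells, had 1 at 163 bases. The erythroid transcription factor gene Klf1 had 1 at 80 bases, and Rhag, which encodes the Rh-associated glycoprotein of the red cell membrane, had 1 at 31 bases. The window of Gata1, the master regulator of the erythroid lineage, held a KLF motif 34 bases before the start and no GATA motif. The window of Tspo2, an erythroid membrane protein gene, held neither, which says only that these letters are not in this window.

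The share of promoters with a GATA motif was read over all members. Members overlapped 49 promoter windows of 48 protein-coding genes, and 23 of these windows (46.9%, Wilson 95% interval 33.7 to 60.6) held a GATA motif. Over all 21019 protein-coding windows of the same length in the table, 15.8% held one. Promoters under regions open in all 8 WT libraries held one in 8.53% of 10545 windows (8.01 to 9.07). The value was 17.9% of 156 windows under regions shared by both LT-HSC and both LMPP libraries but closed in MDP and CDP, 12.5% of 80 windows under regions of LMPP only, 11.8% of 17 windows under regions of WT MDP only and 7.02% of 57 windows under regions of WT CDP only. The interval of the LT-HSC-only promoters lay above the intervals of the LMPP-only (6.93 to 21.5), CDP-only (2.76 to 16.7) and all-library promoters, and overlapped that of the MDP-only promoters (3.29 to 34.3). Just outside the rule, the share was 26.2% of 42 windows (15.3 to 41.1) under regions of both LT-HSC libraries and exactly 1 other WT library, and 22.2% of 81 windows (14.5 to 32.4) under regions of LT-HSC replicate 2 alone. These intervals cover counting error only and no test was made.

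**Figure D1:**
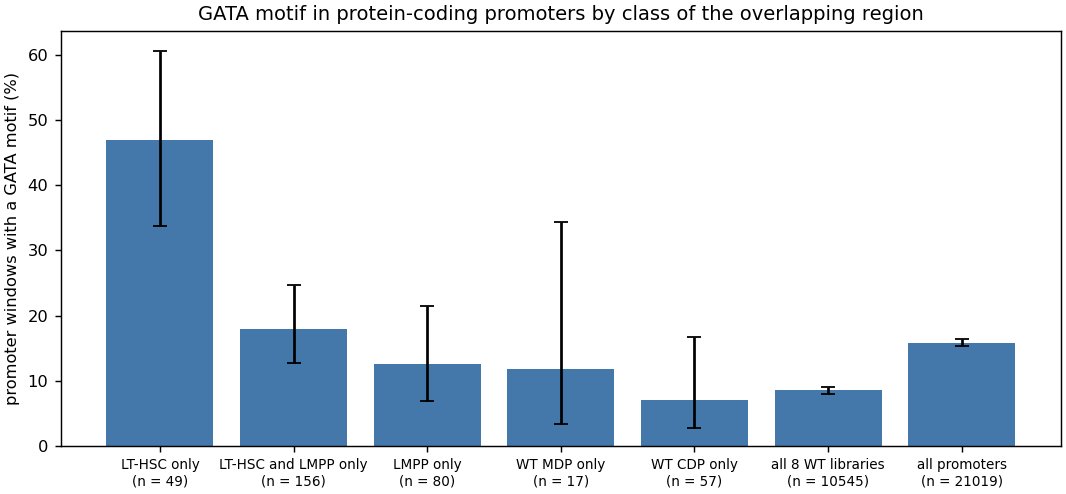
Percent of protein-coding promoter windows (300 bases) that hold a GATA motif, by the class of the overlapping region, with Wilson 95% intervals as error bars and the number of windows under each bar. The LT-HSC-only bar stands at 46.9%, against 17.9% for regions shared with LMPP and 15.8% for all promoters.

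Base composition differed between these sets and moves with the motif, since GATA motifs are rich in A and T. The median GC content was 51.3% in the windows over members and 62.0% in those over regions open in all 8 WT libraries, with 56.7% over all protein-coding windows. Within windows of 45 to 55% GC, 15 of 24 over members held a GATA motif (62.5%), against 18.1% of 1985 over the regions of all 8 WT libraries and 21.5% of all 5795. Below 45% GC the counts were 6 of 9 over members (66.7%), against 33.7% of 312 over the regions of all 8 WT libraries and 40.0% of all 3502. At or above 55% GC they were 2 of 16 over members (12.5%), against 5.27% of 8248 over the regions of all 8 WT libraries and 5.84% of all 11722. The other motifs were closer to the background: the KLF motif stood in 20.4% of the windows over members and 19.6% of all windows, the RUNX motif (TGTGGTT) in 4.08% and 4.73%, and the C/EBP motif (TTGCNNAA) in 10.2% and 10.3%. The AP-1 motif (TGANTCA) stood in 18.4% of the windows over members (9.98 to 31.4) and 7.04% of all windows, and the E-box CAGCTG in 28.6% (17.8 to 42.4) and 15.7%. The GATA share depended on LT-HSC replicate 1: without that library it was 31.5% of 130 windows. With every peak list cut to the length of the shortest it was 21.3% of 178 windows.

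Erythroid genes held the most members of the 14 gene lists examined, although without LT-HSC replicate 1 stem cell transcription factor genes held more regions (58, against 45 at erythroid genes). Each region was assigned to the protein-coding gene whose span was nearest, up to 100 kb away, which placed 1318 of the 1519 members (86.8%) at 1136 genes. Of 93 regions at erythroid list genes found in both LT-HSC libraries, 27 were members (29.0%), against 1318 of 27461 (4.80%) over all protein-coding genes. They lay at 16 of the 30 erythroid genes, and 26 of the 30 had a region found in both LT-HSC libraries at all. Nprl3, the neighbour of the alpha-globin genes, was counted on this list and held 4 of the 27 members and 7 of the 93 regions. The erythroid list took 1.78% of the members, against 0.0844% of the 4739 regions of LMPP only, 0.163% of the 1836 regions of WT MDP only, 0.0177% of the 5634 regions of WT CDP only and 0.173% of the 20770 regions open in all 8 WT libraries. The share was 0.842% of the 594 regions of both LT-HSC libraries and exactly 1 other WT library, 0.507% of the 2563 regions shared by LT-HSC and LMPP, and 0.414% of the 4353 regions of LT-HSC replicate 2 alone. None of the 27 was detected in an IRF8KO library, which allows a share of up to 11.1%, beside 31 of all 1519 members (2.04%). Their median positions in the LT-HSC lists were 56.3% and 41.0% of the way down in replicates 1 and 2, the order of rows being read as rank.

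Raw counts over all erythroid regions did not separate LT-HSC from LMPP, but the libraries differed in how many regions they detected. Over all merged regions, the LT-HSC libraries detected 30181 and 50699 and the LMPP libraries 61546 and 62422. Relative to these totals, both LT-HSC libraries lay above both LMPP libraries. The members, which LT-HSC peaks chose, are part of these counts. Over all 225 merged regions at erythroid list genes, the numbers detected were 95 and 140 in the LT-HSC libraries, 120 and 115 in LMPP, 61 and 72 in IRF8KO MDP, 93 and 93 in WT MDP, and 99 and 95 in WT CDP. In raw counts, the 2 LT-HSC libraries lay on either side of both LMPP libraries, and the IRF8KO MDP libraries lay below all others. Without LT-HSC replicate 1, the rule gave 5872 regions, 45 of them at erythroid list genes (0.766%). Whether the sorted LT-HSC held cells already on the erythroid path was not tested.

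**Figure D2:**
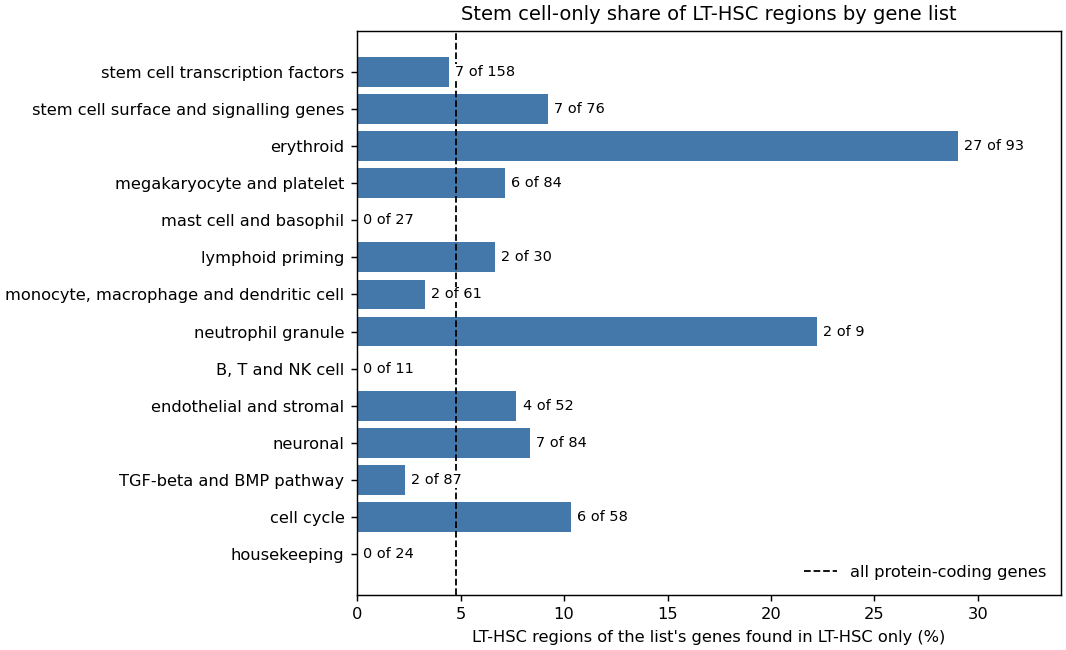
Percent of the regions found in both LT-HSC libraries that were found in no other WT stage, for the genes of each of 14 lists, with the counts beside the bars and the value over all protein-coding genes (4.80%) as a dashed line. The erythroid bar reaches 29.0%, and the neutrophil granule bar, at 22.2%, rests on 2 of 9 regions.

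Regulators of the erythroid program were among these genes. Gata1 had 2 members, 1 over its promoter (chrX:7967761-7968684) and 1 centred 3.61 kb upstream of the start site (chrX:7971181-7971860), and these were its only regions found in both LT-HSC libraries. A further Gata1 region was detected in LMPP replicate 1, both IRF8KO MDP, both WT MDP and both WT CDP libraries. Klf1 had 1 member, over its promoter (chr8:84901060-84902347), beside 1 region that all 10 libraries shared. Zfpm1, which encodes FOG1, the cofactor of GATA1, had 3 members inside its span, of 9 regions found in both LT-HSC libraries. The best placed of them (chr8:122308849-122310055) stood at 16.9% and 13.5% of the way down the lists of LT-HSC replicates 1 and 2. Sox6, a factor that silences embryonic globin, had 2 members of 7 regions found in both LT-HSC libraries.

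Genes of heme synthesis and the red cell membrane also held members. Alas2, the erythroid enzyme of the first step of heme synthesis, had 2 regions, both members, centred 2.46 kb and 17.5 kb downstream of its start (chrX:150549549-150550202 and chrX:150564620-150565174). Both LT-HSC libraries detected both Alas2 regions, and the other 8 libraries detected neither. For the WT libraries the rule set this, since both regions were members, and only the IRF8KO MDP libraries were free. Slc4a1, the band 3 anion exchanger, had 2 members, 1 at a gene end (chr11:102363586-102365468) and 1 centred 10.4 kb from the gene (chr11:102375104-102376267). Kel had 2 of its 3 regions found in both LT-HSC libraries as members, 1 over the promoter. Ank1 (ankyrin of the red cell skeleton), Rhag, Hemgn (a nuclear protein of erythroid progenitors), Trim10 and Tspo2 had 1 member each. For Trim10 and Tspo2, as for Alas2, no library other than the LT-HSC libraries detected any region. The only Trim10 region was its member, so the rule set its absence in the later WT libraries. At Ank1 the LT-HSC libraries detected 6 and 10 of 15 regions and the LMPP libraries 11 each, so other sites of this gene were open in LMPP.

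**Figure D3:**
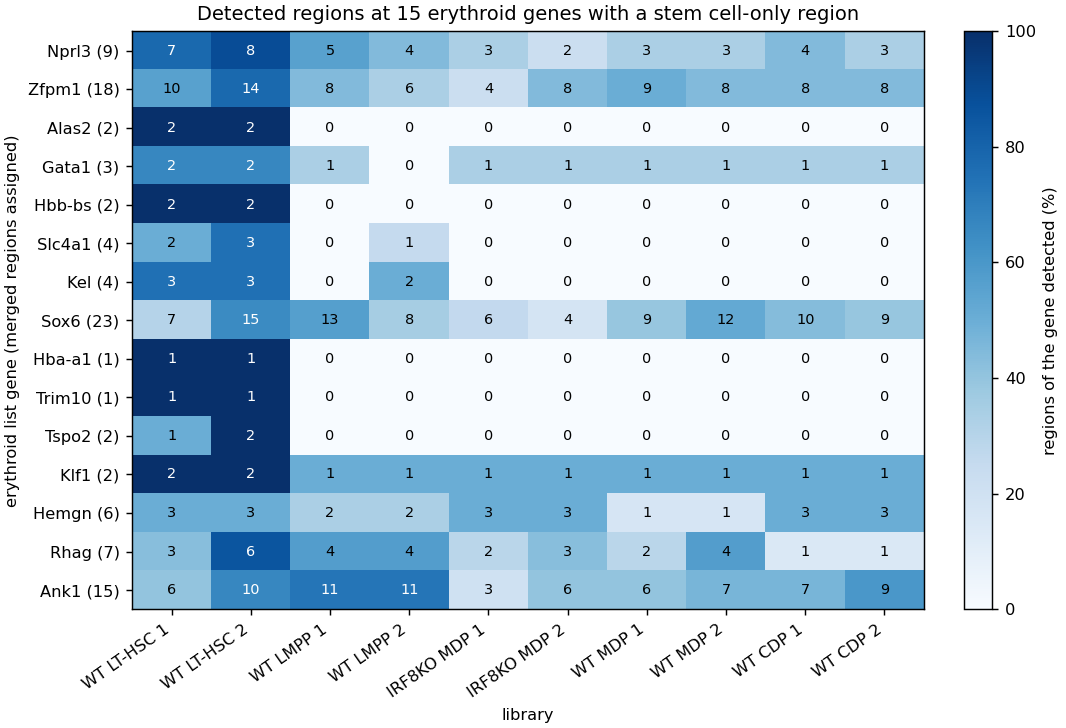
Number of merged regions detected in each of the 10 libraries (columns) at 15 of the 16 erythroid list genes with a member (rows), with the gene's total in brackets and the shade giving the percent detected. Alas2, Hbb-bs, Hba-a1, Trim10 and Tspo2 have regions in the LT-HSC columns only, whereas Ank1 and Sox6 have regions in every column. All regions of Alas2, Hbb-bs, Hba-a1 and Trim10 are members, which the rule keeps out of the later WT columns.

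Both globin clusters held groups of 5 members. Known enhancers of the alpha-globin genes lie within and beside the neighbouring gene Nprl3, which itself encodes a subunit of a complex that restrains nutrient signalling through mTORC1. Between 45 kb before and 10 kb after the Hba-a1 start site there were 10 merged regions, of which 5 were members. Their centres lay 37.8, 32.5, 27.3 and 14.5 kb before the start, 3 of them inside the Nprl3 span and 1 just outside it, and 1.73 kb after it, beyond the end of Hba-a1. The libraries detected 8 and 9 of the 10 regions in LT-HSC, 4 and 4 in LMPP, 2 and 1 in IRF8KO MDP, 2 and 3 in WT MDP, and 3 and 3 in WT CDP. The region centred 16.0 kb before the start was detected in all 10 libraries and the one 36.0 kb before it in all 8 WT libraries, so shared regions lay between members along Nprl3. Hba-a1 and Hba-a2 are near-identical copies, and the sources used here do not say how the authors placed reads that fit both, so the member beside Hba-a1 is uncertain as to copy.

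The beta-globin cluster is controlled by a group of distant enhancers, the locus control region, which lies beyond the embryonic gene Hbb-y. Between 25 kb before and 70 kb after the Hbb-bs start site, counted toward higher coordinates, there were 13 merged regions and 5 members. One member covered the Hbb-bs promoter (chr7:103827727-103828616) and 1 overlapped its far end (chr7:103825469-103826718). The other 3 were centred 38.0, 42.9 and 49.4 kb toward higher coordinates, between Hbb-y and the olfactory receptor gene Olfr66. LT-HSC libraries detected 9 and 11 of the 13 regions, LMPP libraries 5 and 4, IRF8KO MDP libraries 0 and 1, WT MDP libraries 2 and 4, and WT CDP libraries 2 and 4. The rule places the 5 members of each window in both LT-HSC libraries and in no later WT library, so these counts are no comparison of the stages. Without the members, the alpha-globin window had 3 and 4 regions in the LT-HSC libraries and 4 and 4 in the LMPP libraries. The beta-globin window had 4 and 6 in the LT-HSC libraries and 5 and 4 in the LMPP libraries. The rule took out only regions of both LT-HSC libraries that LMPP lacked, so these counts are no comparison of the stages either. A region centred 32.7 kb toward higher coordinates was detected in all 8 WT libraries and in IRF8KO MDP replicate 2. Hbb-bs and Hbb-bt are also near-identical, and the members at Hbb-bs are uncertain as to copy in the same way.

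**Figure D4:**
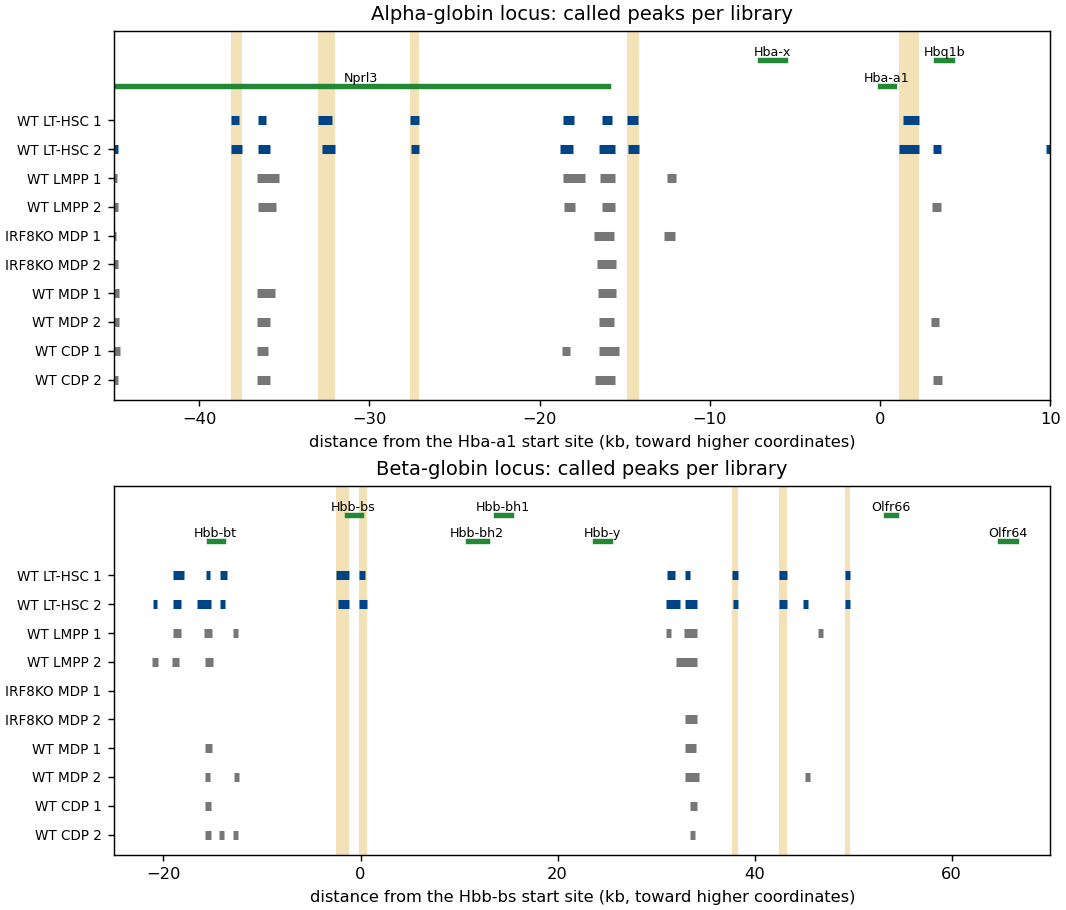
Called peaks of each library (rows) along the alpha-globin locus (upper panel) and the beta-globin locus (lower panel), in kb from the Hba-a1 and the Hbb-bs start site toward higher coordinates, with genes as green bars and members shaded. The shaded columns hold peaks in both LT-HSC libraries and in no other library, while peaks near 33 kb on the beta-globin axis are present in most libraries.

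Another erythroid locus lay among the microRNA genes. Of 1005 hairpins in the RefSeq table on these chromosomes, 13 lay within 10 kb of a member, and 12 members lay that close to a hairpin. Mir144 and Mir451a, a pair of hairpins whose microRNAs are abundant in red cells, had 2 members before them, centred 6.95 kb (chr11:78065822-78066358) and 3.23 kb (chr11:78069348-78070263) before the Mir144 hairpin. Another 2 regions, 0.365 kb before and 1.21 kb after the hairpin, were detected in LT-HSC replicate 2 and in no other library. The members were nearest to the protein-coding genes Flot2 and Eral1 and so were not counted with the erythroid list. The mature sequences are given 5′ to 3′ with the seed, bases 2 to 8, in capitals, because these are the microRNAs beside the members. The 3 seeds differ from each other.
mmu-miR-144-5p: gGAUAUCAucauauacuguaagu
mmu-miR-144-3p: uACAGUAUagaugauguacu
mmu-miR-451a: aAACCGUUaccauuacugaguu

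Stem cell genes held members at shares nearer to the background than erythroid genes did. At 30 stem cell transcription factor genes, 7 of 158 regions found in both LT-HSC libraries were members (4.43%), close to the 4.80% over all genes. Of these, 5 lay at Gfi1b, Lmo2, Tcf15, Mllt3 and Zfp521 (1 each), which encode regulators of stem cell maintenance or of early blood lineages. The Lmo2 member (chr2:103893688-103894347) stood 16.6% and 21.8% of the way down the lists of LT-HSC replicates 1 and 2 and was centred 63.9 kb from the gene. It covered the start of the non-coding gene Gm39895, whose promoter window held 2 GATA motifs and 1 KLF motif. The other regions of the 158 were also found in at least 1 later WT library.

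At 30 stem cell surface and signalling genes, 7 of 76 regions were members (9.21%). Vwf, the clotting factor gene that marks platelet-biased stem cells, had 2, of which 1 overlapped a gene end (chr6:125552626-125553622). Slamf1, which encodes CD150, the marker used in the sort, had 1 inside the gene, 6.31 kb after the start (chr1:171773108-171773778). Cxcr4, the receptor that holds stem cells in the marrow, the calcium-activated channel family gene Clca3a1, the TGF-beta co-receptor gene Tgfbr3 and the junction gene Jam3 had 1 each. Clca3a1 had no region in any library other than those of LT-HSC. Detection set the stem cell lists apart from some lists and not from others. A region found in both LT-HSC libraries was present at 27 of 30 stem cell transcription factor genes and 25 of 30 surface genes. It was also present at 26 of 30 erythroid, 23 of 28 monocyte, macrophage and dendritic cell and 13 of 15 housekeeping genes. Fewer genes had one in the lymphoid priming (12 of 20), mast cell and basophil (10 of 19), neutrophil granule (7 of 15) and B, T and NK cell (5 of 16) lists. At stem cell transcription factor genes the LT-HSC libraries detected 163 and 315 regions, of 30181 and 50699 detected in all. The LMPP libraries detected 333 and 337 there, of 61546 and 62422.

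Megakaryocyte and platelet genes held 6 members among 84 regions (7.14%). Cavin2, a caveola protein abundant in platelets, had 2, Vwf, which this list shares with the surface list, had 2, and the tetraspanin gene Cd9 and the granule transport gene Rab27b had 1 each. The remaining lists held few. Lymphoid priming genes had 2 of 30 (Ikzf1 and Ebf1), monocyte, macrophage and dendritic cell genes 2 of 61 (Sirpa and Zbtb46), neutrophil granule genes 2 of 9 (both at S100a9) and endothelial and stromal genes 4 of 52 (3 at Cdh11, 1 at Col4a2). Neuronal genes had 7 of 84 (4 at Cntnap2, 1 each at Nrxn3, Ctnnd2 and Rbfox1), cell cycle genes 6 of 58 (3 at Mki67, 1 each at Ccne1, Myc and Ccnd3) and TGF-beta and BMP pathway genes 2 of 87 (Smad6 and Tgfbr3). None of 27 mast cell and basophil regions, 11 B, T and NK cell regions or 24 housekeeping regions was a member, which allows shares of up to 11.1%, 27.3% and 12.5%.

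These counts depended on single libraries. Without LT-HSC replicate 1, the rule gave 5872 regions in place of 1519, and the counts that follow are not shares of that total. The count of each of the 14 lists was over 1.5 times as high. There were 58 regions at stem cell transcription factor genes, 32 at megakaryocyte genes, 30 at neuronal genes and 29 at stem cell surface genes. The count was 14 at TGF-beta and BMP genes, 13 at endothelial and stromal genes and 12 at cell cycle genes. It was 8 at neutrophil genes, 7 at monocyte and dendritic cell genes, 4 each at mast cell and lymphoid genes, and 3 each at B, T and NK cell and housekeeping genes. Without LMPP replicate 1, of 1813 regions, 10 were at megakaryocyte genes, 5 at TGF-beta and BMP genes and 1 each at mast cell, B, T and NK cell and housekeeping genes. Without LMPP replicate 2, 13 of 1729 regions were at stem cell transcription factor genes. Without LT-HSC replicate 2, 1 of 1791 was at housekeeping genes.

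Lsamp and Mgll, which are on no list, held more members than any list gene. Lsamp, which encodes a neural adhesion protein and spans a long stretch of chromosome 16, had 6 members of 9 regions found in both LT-HSC libraries. One covered its promoter (chr16:39984040-39984926). Mgll, the monoacylglycerol lipase, had 5 of 7, all within 52.6 kb (chr6:88730979-88783589). In that stretch the LT-HSC libraries detected 5 and 7 of 8 regions and the LMPP libraries 2 each. The IRF8KO MDP libraries detected 0 each, the WT MDP libraries 0 each and the WT CDP libraries 1 each. The stretch runs from the first to the last member, so the rule lowers the later WT counts in it. Over all 21 regions of Mgll, the LT-HSC libraries detected 7 and 13 and the LMPP libraries 8 and 9. The IRF8KO MDP libraries detected 7 and 5 of these, the WT MDP libraries 9 each and the WT CDP libraries 12 and 9. Ndst3, a heparan sulfate modifying enzyme, had 4 of 5 and held 2 of the 8 best placed members. Nprl3, described above, had 4 of 7. Cntnap2 and Opcml, both neural adhesion genes, had 4 of 10 each, and the sialyltransferase gene St3gal1 and the transcription factor gene Zeb2, which is needed for blood differentiation, had 4 of 13 each.

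Cdh11, a cadherin of stromal cells, had 4 merged regions and 3 members, and no library other than those of LT-HSC detected any of the 4. Fig4 (a phosphoinositide phosphatase) and Ranbp10 (a microtubule regulator of platelets) had 3 of 4 each, and Alg9 (a mannosyltransferase of protein glycosylation) had 3 of 5. Most genes had far fewer: 991 genes had 1 member, 119 had 2 and 26 had more, of which 18 had 3 and 6 had 4. Without LT-HSC replicate 1, when the rule gave 5872 regions in all, the counts were 10 at Lsamp, 9 at Cntnap2, 8 at Zeb2, and 7 each at Opcml and St3gal1. With every list cut to the length of the shortest, 1 region was at Cdh11.

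Members were scattered over the genome, and few formed dense groups. With gaps of at most 50 kb between centres, 1237 of the 1519 members stood alone, 108 pairs were found, and 66 members fell into 18 groups of 3 or more. Besides Mgll and the globin clusters, 5 members lay over 79.7 kb at Lpin2, a phosphatidate phosphatase gene, and Emilin2, an extracellular matrix gene (chr17:71211769-71291493). The span of this group held 22 merged regions in all, and each WT LMPP, MDP and CDP library detected 7 to 12 of them. A group of 4 lay at Ranbp10 and the centromere gene Cenpt (chr8:105799337-105847278). At 3 members over 20.4 kb of Fig4 (chr10:41189325-41209725), and at 3 members over 77.6 kb at Tyrp1 and Lurap1l (chr4:80873087-80950708), the span held no region other than the members, and none of the libraries outside LT-HSC detected any. For the later WT libraries the rule set this. Over all 9 regions of Fig4, the LT-HSC libraries detected 5 each, the LMPP libraries 1 and 2 and the WT MDP libraries 1 each. The WT CDP libraries detected 2 and 1 of these, and the IRF8KO MDP libraries 2 each. By chromosome, members made up 4.34% (chromosome 19) to 7.08% (chromosome 6) of the regions found in both LT-HSC libraries, and 4.97% on X.

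Members lay mostly away from gene ends. The share within 1 kb of the start or end of a protein-coding gene was 5.20% (79 members, Wilson 95% interval 4.19 to 6.43), against 42.6% of regions open in all 8 WT libraries. Classes found in a single later stage had shares near that of the members, at 3.69% for LMPP only, 4.08% for WT MDP only and 3.73% for WT CDP only, and 7.37% for regions shared by LT-HSC and LMPP. Inside a gene span lay 859 members (56.6%), against 66.1% of the regions open in all 8 WT libraries. The median distance to the nearest gene end was 24.1 kb for members and 2.56 kb for regions open in all 8 WT libraries. Which members were exonic or intronic was not determined, since the gene table gives spans only. The erythroid members differed from this pattern, with 9 of 27 within 1 kb of a gene end.

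From a member to the nearest peak of a later WT stage the median distance was 5.19 kb, with 86 members (5.66%) within 500 bp and 134 (8.82%) more than 50 kb away. The same distance to a peak of another stage was 6.38 kb for regions of LMPP only, 4.06 kb for WT MDP only and 3.46 kb for WT CDP only. Members were narrow, with a median width of 672 bp (quartiles 617 and 822.5 bp), against 1453 bp for the other regions found in both LT-HSC libraries. Merging peaks of more libraries widens a region, so widths are not equal measures in these classes.

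Members stood lower in both LT-HSC peak lists than the other regions found in both, low in replicate 1 and near the middle in replicate 2. The lists carry no strength, and row order was taken as rank, in percent of the way down the list, with 0 at the top. Members had a median position of 73.8% in LT-HSC replicate 1 and 50.9% in replicate 2, against 45.9% and 27.5% for the other regions found in both. Their positions ran from 2.61% to 99.9% in replicate 1 and from 2.75% to 99.6% in replicate 2. The Spearman correlation between the replicates' positions was 0.600 across the 1519 members, against 0.888 across 27749 other regions, as a description across regions that share both libraries. LT-HSC replicate 1 had the shorter list, which held 31325 peaks with 19.3% of tags in peaks, against 52147 peaks and 38.1% in replicate 2, and all 10 libraries had 31325 to 69598 peaks from 4790046 to 10166833 tags. A peak missed in a later library cannot be told apart from a closed site by these lists.

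**Figure D5:**
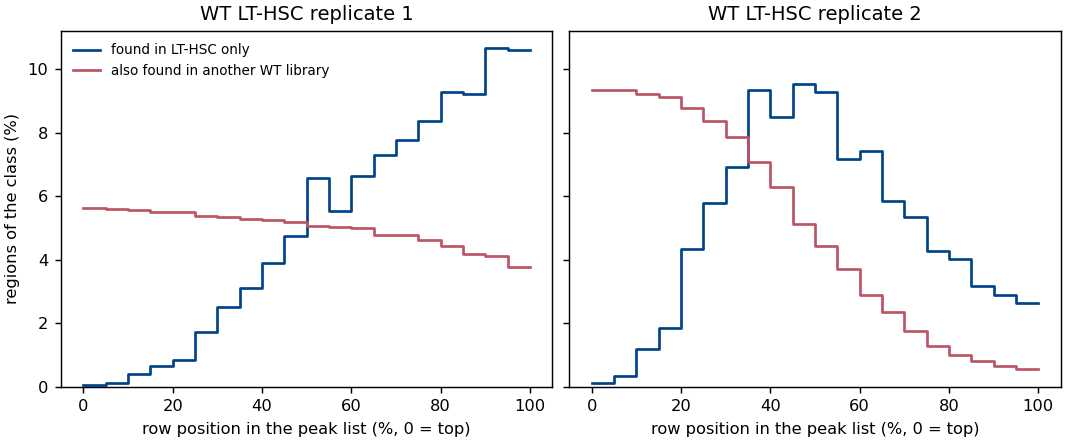
Distribution of row positions (percent of the way down the list, 0 at the top) of the members and of the other regions found in both LT-HSC libraries, as percent of each class, for LT-HSC replicates 1 and 2. Members gather toward the lower end in replicate 1 and in the middle in replicate 2, with medians of 73.8% and 50.9%, against 45.9% and 27.5% for the other regions.

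The member best placed in both lists lay inside Cavin2 (chr1:51299774-51301137), at 2.61% and 2.75%. The next were both at Ndst3 (chr3:123575654-123577314 and chr3:123697602-123698383), at mean positions of 8.95% and 9.23%. Among the rest of the best 8 were members at Gypc, which encodes a membrane protein of red cells, Otub2, a deubiquitinase gene, and Tbx19, a T-box factor gene. The mean positions of these 3 members ran from 9.42% to 11.7%. Among members over a promoter window, the best placed protein-coding ones were Lurap1l, an adaptor protein gene, Hbb-bs, the receptor gene Gpr146, Tspo2 and the calcium channel gene Cacna1c, with mean positions of 27.7% to 32.1%. The non-coding genes Gm39895, Gm39087, Gm36845, 4930405O22Rik and Gm39839 made up the other 5 of the best 10.

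The edge of the rule was drawn most by LT-HSC replicate 1 and, among the later WT libraries, by the LMPP libraries. Just outside it were 594 regions found in both LT-HSC libraries and in exactly 1 other WT library, of which 294 were in LMPP replicate 1 and 210 in LMPP replicate 2. The other 90 were in an MDP or CDP library, with 18 to 30 in each. Regions found in 1 LT-HSC library and no other WT library numbered 272 for replicate 1 and 4353 for replicate 2. The 594 regions stood at median positions of 72.9% and 50.4% in the LT-HSC lists, next to the 73.8% and 50.9% of the members.

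Few members were open in MDP without IRF8, which the rule did not use. Both IRF8KO MDP libraries detected 15 of the 1519 members (0.987%, Wilson 95% interval 0.599 to 1.62), 16 more were found in 1 of them and 1488 in neither. Among all 45583 regions with no WT MDP peak, both IRF8KO libraries detected 6.74%. That set includes regions called in IRF8KO libraries alone, whereas a member had to be called in LT-HSC, so the 2 shares are not like measures. The share was 2.95% for regions of LMPP only (2.51 to 3.48) and 1.81% for WT CDP only (1.49 to 2.19). It was 3.47% for regions shared by LT-HSC and LMPP (2.83 to 4.25). The interval of the members lay below those of the LMPP-only and the shared regions and overlapped that of the CDP-only regions. Among WT libraries, regions of LT-HSC replicate 1 alone had 1.47% (0.573 to 3.72) and those of replicate 2 alone 1.42% (1.11 to 1.82). The interval of the members overlapped both, so a low share was not particular to the members. Regions of both LT-HSC libraries and exactly 1 other WT library had 4.38%, with an interval above that of the members. These intervals cover counting error only, since all the shares come from the same 2 IRF8KO libraries. For comparison, both IRF8KO libraries detected 65.3% of regions of WT MDP only. Between IRF8KO and WT MDP, 2 libraries against 2 cannot give an exact permutation p below 0.33, and no test was made. Without LT-HSC replicate 1 the count was 77 of 5872 regions, and with IRF8KO replicate 2 alone it was 26 of 1519.

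The 15 members detected in both IRF8KO MDP libraries lay at genes of mixed roles. The best placed in the LT-HSC lists were at Tpra1, a transmembrane protein gene (chr6:88915207-88916619), Arhgap23, a GTPase regulator gene, H2az1, the gene of a histone variant, Cxcl1, a chemokine that attracts neutrophils, and S100a9, a calcium-binding protein of neutrophils. The S100a9 member lay over the start site (chr3:90695344-90696073), at 70.9% and 53.6% of the way down the lists of IRF8KO replicates 1 and 2. At S100a9 the LT-HSC libraries detected 3 and 5 of 7 regions, the LMPP libraries 1 and 3, the IRF8KO MDP libraries 6 and 6, the WT MDP libraries 3 and 4, and the WT CDP libraries 3 and 2. The 2 IRF8KO MDP libraries were thus the highest at this gene. The Cxcl1 member (chr5:90881579-90882250), centred 9.33 kb upstream of the gene, stood at 38.4% and 43.0% in the IRF8KO lists and at 58.9% and 56.6% in the LT-HSC lists. The Tpra1, Arhgap23 and H2az1 members stood between 62.5% and 97.5% in the IRF8KO lists.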

How the data were processed

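The tools named, per the submitters' processing notes, were Bowtie 1.1.2 and HOMER 4.9, and the builds mm10 and GRCm38. HOMER ran on every library separately and without a control, per the file headers, at a false discovery rate of 0.001, with 500 bp peaks at least 1000 bp apart, 4-fold enrichment over 10 kb around the peak and 1 tag counted per bp at most. The sources used here do not give a shift for the transposase offset. The deposited lists give peak positions, and the deposited score column holds 1 in every row. Rows of the LT-HSC lists fell into 249 and 401 runs in genome order, of which the longest held 8.53% and 6.96% of the rows, so row order was read as a rank with ties and is coarse.

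Peaks were merged in Python 3.11.15 (pandas 2.3.3, numpy 2.4.6, SciPy 1.17.1, matplotlib 3.10.9), with merging and counting tested on simulated data. Coordinates are 1-based in mm10. Genes came from the RefSeq table of GRCm38.p6, with 21627 protein-coding genes, and 325 of 326 entries of 14 lists matched. Promoter windows in that table number 32585. No genome of the build was used here, so the planned motif windows around peak centres were not run and motifs were searched in promoter windows only. The members, lists and motifs were chosen with earlier results of these data known, so no list is independent evidence. Genes were named by rule: the 12 with the most members, the 4 with the most in each list, those at the 8 best placed members, at the 5 best placed members in both IRF8KO libraries, at the 5 largest groups and at the 10 best placed promoters. The other erythroid list genes, Lmo2, Zfp521, Cxcr4, Jam3, the groups at Fig4 and at Tyrp1, and the microRNAs were named after their values were seen. No test was made, and intervals and limits for a count of 0 (3 counts) cover counting error only. Some genes that the naming rule picks are not reported here.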

Additional observations from a re-analysis of the deposited data

How the results depend on the processing

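Detection in lists without tag counts limits every value here. Leaving out 1 library at a time gave 1537 to 5872 regions (1519 with all), 17 to 77 of them in both IRF8KO MDP libraries (15 with all), 5.04% to 5.79% within 1 kb of a gene end (5.20%), 27 to 45 at erythroid list genes (27) and a GATA motif in 31.5% to 49.0% of protein-coding promoter windows (46.9%). Of these, the highest counts and the lowest GATA share came without LT-HSC replicate 1, and the highest gene-end share without LMPP replicate 1. With every list trimmed to the 31325 rows of the shortest there were 2974 regions, 85 of them in both IRF8KO MDP libraries, 7.13% within 1 kb of a gene end and a GATA motif in 21.3%. With only members in the top 50% of both LT-HSC lists there were 249, of which 1 was in both IRF8KO MDP libraries, 7.23% were within 1 kb of a gene end and 10 were at erythroid list genes. Within 2.5 kb of a gene end lay 10.4%. Merging at 100 bp, asking for no other WT peak within 500 bp, leaving out regions over 5 kb, and taking genes within 20 kb for the erythroid count moved none of these 5 values by more than 1.5 times or beyond its interval. All alternatives for the GATA value were chosen after seeing the data, as were those for the lists and single genes other than trimming and the 20 kb limit. Of 350 other values recomputed for lists and genes, 291 stayed within 1.5 times. The cause of these shifts was not tested. No paired analysis was possible because no result comes from a test.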
